A study of Homo sapiens and Mus musculus with 100 samples.

Results

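The genes described here are 4 FXYD proteins, FXYD1, FXYD2, FXYD3 and FXYD5, and 2 β subunits of the sodium pump, ATP1B1 and ATP1B3. They are 6 of the 28035 genes listed in the human tables, and their 6 mouse counterparts are among the 24940 genes listed in the mouse tables. They were selected on measured values, from comparisons of groups within each table with attention to kynurenine (Kyn) and to an AhR inhibitor. Their values in those 2 experiments are therefore given as a description without a test. Tests are given for the experiments on other treatments. Values of those experiments may also have entered the choice, so their p-values may not be free of selection.

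The study asked how shortage of vitamin B2 (riboflavin) alters gene expression in liver and gut cells and what the kynurenine pathway and the aryl hydrocarbon receptor (AhR) have to do with it. HepG2, a human hepatoma line, was kept in B2-deficient or control medium and sampled on days 3, 6, 9 and 12, and Caco-2, a human colon carcinoma line, on day 9. Further HepG2 groups, all of day 12, were B2-deficient or control cells with or without an IDO/TDO inhibitor, with or without an AhR inhibitor, or with an AhR or a control guide RNA, and cells given Kyn or its DMSO vehicle with or without the AhR inhibitor. Mouse samples were hepatocytes from AhR-flox animals, B2-deficient or control with a label of 4 weeks and infected with Ad-Cre or Ad-Cont, and whole livers after 4 weeks on a B2-deficient or control regime. Each cell group had 3 libraries, and 4 liver libraries per regime were used. The mouse cells of every group carried the floxed AhR allele, and Ad-Cre acts only in cells the adenovirus reaches. For the dose of Kyn, the inhibitors' names, the site of the guide and the floxed exon nothing is given in the labels.

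The sodium pump exchanges sodium for potassium across the cell membrane at the cost of ATP. Its catalytic α subunit needs a β subunit to fold and to reach the membrane, and a small single-span FXYD protein can bind the pair and tune its affinity for ions. FXYD1 (phospholemman) is a kinase-regulated inhibitor known best from heart and muscle, FXYD2 is the γ subunit of the kidney pump, FXYD3 and FXYD5 (dysadherin) are known from epithelia and tumours, and ATP1B1 is the usual β subunit of epithelia, where it also takes part in cell adhesion. AhR is a ligand-activated transcription factor that binds the core letters GCGTG, Kyn is one of its ligands, and IDO and TDO are the dioxygenases that open the path from tryptophan to Kyn.

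In hg38, the human genome build of the files, FXYD1 lies on the plus strand at chr19:35138789-35143055, between FXYD3 (chr19:35115828-35124324) and FXYD5 (chr19:35154722-35169885). FXYD2 lies on the minus strand at chr11:117820075-117824744. ATP1B1 lies on the plus strand at chr1:169106709-169132722, and ATP1B3 on the plus strand at chr3:141876592-141926548. Start-site sequence was read from RefSeq, build GRCh38.p14, as windows that begin 250 bases before an annotated start and end 50 bases after it, and 5 of the 6 members had an entry. Windows of FXYD1 and ATP1B1 are printed because these genes fell both in B2-deficient HepG2 and, in control medium, with the AhR guide. FXYD3 did so too at low TPM, but its window and another one of FXYD1 are not printed. Capitals mark GCGTG, which was searched on both strands.

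The first FXYD1 window, chr19:35138574-35138873 on the plus strand, spans the start of the transcript used in the HepG2 tables and holds 0 matches. The second, chr19:35138885-35139184 on the plus strand, holds 2 matches, which begin at bases 193 and 257 counted from its 5′ end. The ATP1B1 window, chr1:169106440-169106739 on the plus strand, holds 0 matches.
FXYD1 upstream window: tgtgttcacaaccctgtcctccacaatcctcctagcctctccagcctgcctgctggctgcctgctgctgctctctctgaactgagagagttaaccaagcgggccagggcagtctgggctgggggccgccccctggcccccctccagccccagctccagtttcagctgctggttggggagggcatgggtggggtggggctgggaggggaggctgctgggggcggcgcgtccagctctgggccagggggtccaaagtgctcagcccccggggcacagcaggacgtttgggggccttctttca
FXYD1 middle window: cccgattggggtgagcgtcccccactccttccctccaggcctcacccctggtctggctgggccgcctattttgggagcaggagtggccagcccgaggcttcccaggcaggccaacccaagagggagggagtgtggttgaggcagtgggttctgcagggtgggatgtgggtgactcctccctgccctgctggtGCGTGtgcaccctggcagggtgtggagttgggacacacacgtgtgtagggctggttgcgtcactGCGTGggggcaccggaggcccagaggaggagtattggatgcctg
ATP1B1 window: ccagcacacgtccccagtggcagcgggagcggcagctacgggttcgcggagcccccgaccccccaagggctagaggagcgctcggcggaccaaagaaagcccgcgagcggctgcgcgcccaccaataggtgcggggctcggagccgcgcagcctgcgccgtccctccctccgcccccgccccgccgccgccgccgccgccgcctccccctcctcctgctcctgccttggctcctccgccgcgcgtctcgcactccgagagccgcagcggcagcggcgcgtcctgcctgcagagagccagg

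The other FXYD1 window and the ATP1B3 window held 1 match each, and the FXYD3 and FXYD5 windows held 0. Over all 35116 windows of the table, 12832 (36.5%) held the letters. A match is a description of the letters and not a binding site, and a window with 0 matches says only that the letters are not in it.

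Values are TPM (length-scaled shares of a library's reads) made by the submitters from 3′ mRNA libraries. The level of 1 gene is compared between groups of 1 table, and levels are not compared between genes, because division by transcript length does not suit reads that all come from the 3′ end. Read depth recovered from the TPM steps was about 4049600 to 19428000 reads in genes per library of cultured cells and 13915000 to 19644000 per liver library. A gene was tested in a table if it reached 1 TPM in at least 3 libraries (5 in liver), and a difference was called at an adjusted p under 0.05 in limma. All 6 members passed that filter in Caco-2, 5 in the IDO/TDO, guide, Kyn, AhR inhibitor and mouse hepatocyte tables, and 4 in the time course and in liver.

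The labels were checked against CYP1A1, a classic AhR target, and AHR itself. CYP1A1 had 1.16 to 2.22 TPM in B2-deficient cells and 1.84 to 1.92 TPM in control cells with the AhR guide, against 32.0 to 36.2 TPM in B2-deficient cells and 3.75 to 4.45 TPM in control cells with the control guide. In B2-deficient cells AHR mRNA was not lower with the AhR guide (7.06 to 8.09 TPM) than with the control guide (6.07 to 8.26 TPM). In control medium AHR and CYP1A1 together summed to 6.32 to 6.80 TPM with the AhR guide and 8.77 to 10.3 TPM with the control guide. A 3′ tag of AHR may lie outside the edited part and then checks nothing. In mouse hepatocytes Ahr had 6.78 to 8.29 TPM over the 6 Ad-Cre libraries, against 9.32 to 10.7 TPM over the 6 Ad-Cont libraries. Summed TPM of 7 hepatocyte markers, all above the filter, moved with B2 status in HepG2: on day 12 of the time course the sum was 6897 to 7265 in B2-deficient libraries, against 24430 to 25650 in control libraries. Other marker lists moved too. On day 12 the sum of 7 stellate cell markers was 138 to 146 TPM in B2-deficient and 32.4 to 38.3 TPM in control libraries. In each human experiment, here and below, 1 of these 7 was above the filter. The sum of 6 biliary markers, 4 above the filter, was 301 to 305 TPM in B2-deficient and 242.5 to 256.5 TPM in control libraries. Macrophage markers, 2 of 6 above the filter, summed to 16.4 to 16.9 TPM in B2-deficient and 10.3 to 11.2 TPM in control libraries, and enterocyte markers, 3 of 7 above it, to 48.3 to 54.9 TPM in B2-deficient and 100.8 to 111.6 TPM in control libraries. Endothelial and leukocyte markers summed to at most 1.92 TPM in any human library. The part of these shifts in the members' results was not tested. Over all genes the median log2 difference of B2-deficient and control cells was 0.10 on day 12 of the time course, 0.30 without the IDO/TDO inhibitor, 0.15 with the AhR guide, 0.20 with the control guide, and 0.24 with and 0.23 without the AhR inhibitor. The marker sums are levels of the listed genes and do not count cells. In bulk samples fewer cells of a type and less RNA per cell cannot be told apart.

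In the time course FXYD1 climbed steeply in control cells and much less in B2-deficient cells. On day 3 it had 2.38, 2.87 and 3.09 TPM in B2-deficient libraries, against 1.49, 0.971 and 0.693 TPM in control libraries. On day 6 the groups overlapped, at 5.54 to 9.78 TPM in B2-deficient cells and 5.70 to 8.33 TPM in control cells. On day 9 it had 14.7, 8.42 and 8.65 TPM in B2-deficient libraries, against 31.7, 29.8 and 28.5 TPM in control libraries. By then every control library stood above every B2-deficient one. On day 12 it had 13.8, 10.5 and 14.3 TPM in B2-deficient libraries, against 41.7, 45.3 and 34.8 TPM in control libraries.

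FXYD1 thus averaged 12.9 ± 2.04 TPM in B2-deficient cells and 40.6 ± 5.31 TPM in control cells on day 12 (SD, n = 3 each), a log2 difference of -1.59 ± 0.20 (SE, adjusted p = 1.56e-06). On day 9 the difference was -1.46 ± 0.20 (adjusted p = 5.71e-06) and on day 6 it was 0.05 ± 0.20 (adjusted p = 0.871). On day 3 the sign was opposite, 0.89 ± 0.20 (adjusted p = 0.0118), at levels of a few TPM. That early call was lost without replicate 3 of the B2-deficient group (0.84, adjusted p = 0.0539) or replicate 3 of the control group (0.77, adjusted p = 0.0667), and with limma-voom (1.38, adjusted p = 0.103). Between day 3 and day 12 the level rose by 1.87 ± 0.20 on the log2 scale in B2-deficient cells (adjusted p = 2.22e-07) and by 4.35 ± 0.20 in control cells (adjusted p = 2.73e-13). In control cells the day 12 mean was 38.6 times the day 3 mean. The day 12 effect of B2 deficiency minus its day 3 effect was -2.48 ± 0.28 (adjusted p = 1.06e-06).

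FXYD2 moved down in B2-deficient cells from day 6 on. On day 12 it had 55.1, 39.2 and 55.2 TPM in B2-deficient libraries, against 127, 125 and 118 TPM in control libraries. The groups did not overlap on any of the 4 days. Its log2 difference was -0.16 ± 0.12 on day 3 (adjusted p = 0.506), -0.59 ± 0.12 on day 6 (adjusted p = 0.000525), -0.75 ± 0.12 on day 9 (adjusted p = 1.93e-05) and -1.31 ± 0.12 on day 12 (adjusted p = 6.39e-09). Within the B2-deficient cells FXYD2 fell by 0.77 on the log2 scale between day 3 and day 12 (SE 0.12, adjusted p = 1.25e-05), while within control cells it rose by 0.37 ± 0.12 (adjusted p = 0.00855). FXYD2 shares its exons with the read-through gene FXYD6-FXYD2 on the same strand, whose reads were 90.2% to 107% of those of FXYD2 in each human library. The 2 genes cannot be told apart in these counts, and FXYD2 stands for both here.

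The β subunits went separate ways. ATP1B1 stayed at 341 to 391 TPM in B2-deficient libraries over all 4 days, and in control libraries at 318 to 397 TPM through day 9. On day 12 it had 375, 381 and 385 TPM in B2-deficient libraries, against 553, 566 and 485 TPM in control libraries, a log2 difference of -0.49 ± 0.05 (adjusted p = 9.59e-08). Between day 3 and day 12 its difference was 0.03 ± 0.05 in B2-deficient cells (adjusted p = 0.703) and 0.55 ± 0.05 in control cells (adjusted p = 7.4e-09), and after median scaling that in B2-deficient cells passed the test as well (0.16, adjusted p = 0.0228). The day 12 effect minus the day 3 effect was -0.52 ± 0.08 (adjusted p = 1.18e-05). ATP1B3, the alternative β subunit, was a little higher in B2-deficient cells, by 0.23 ± 0.08 on day 6 (adjusted p = 0.0237) and 0.26 ± 0.08 on day 9 (adjusted p = 0.00748), while the 0.18 ± 0.08 of day 12 did not pass the test (adjusted p = 0.0535) except with limma-voom (0.32, adjusted p = 4.75e-05), with the 2 groups alone (0.18, adjusted p = 0.0186) and with a replicate block (0.18, adjusted p = 0.0309). On day 6 the ATP1B3 call was lost without replicate 1 or 3 of the B2-deficient group (0.15, adjusted p = 0.16, and 0.23, adjusted p = 0.0515) or replicate 3 of the control group (0.16, adjusted p = 0.15), and with median scaling (0.19, adjusted p = 0.0602), no filter (0.23, adjusted p = 0.051) or the 2 groups alone (0.23, adjusted p = 0.0924). On day 9 it was lost without replicate 1 of the B2-deficient group (0.21, adjusted p = 0.0505) or replicate 2 of the control group (0.20, adjusted p = 0.0526), and with quantile normalization (0.16, adjusted p = 0.0761). The end of ATP1B1 overlaps NME7 on the opposite strand by 193 bases, and no label or header says whether counting used strand. NME7 had 6.64% to 21.6% as many reads as ATP1B1 in the human libraries, and on day 12 its difference was -0.50.

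**Figure D1:**
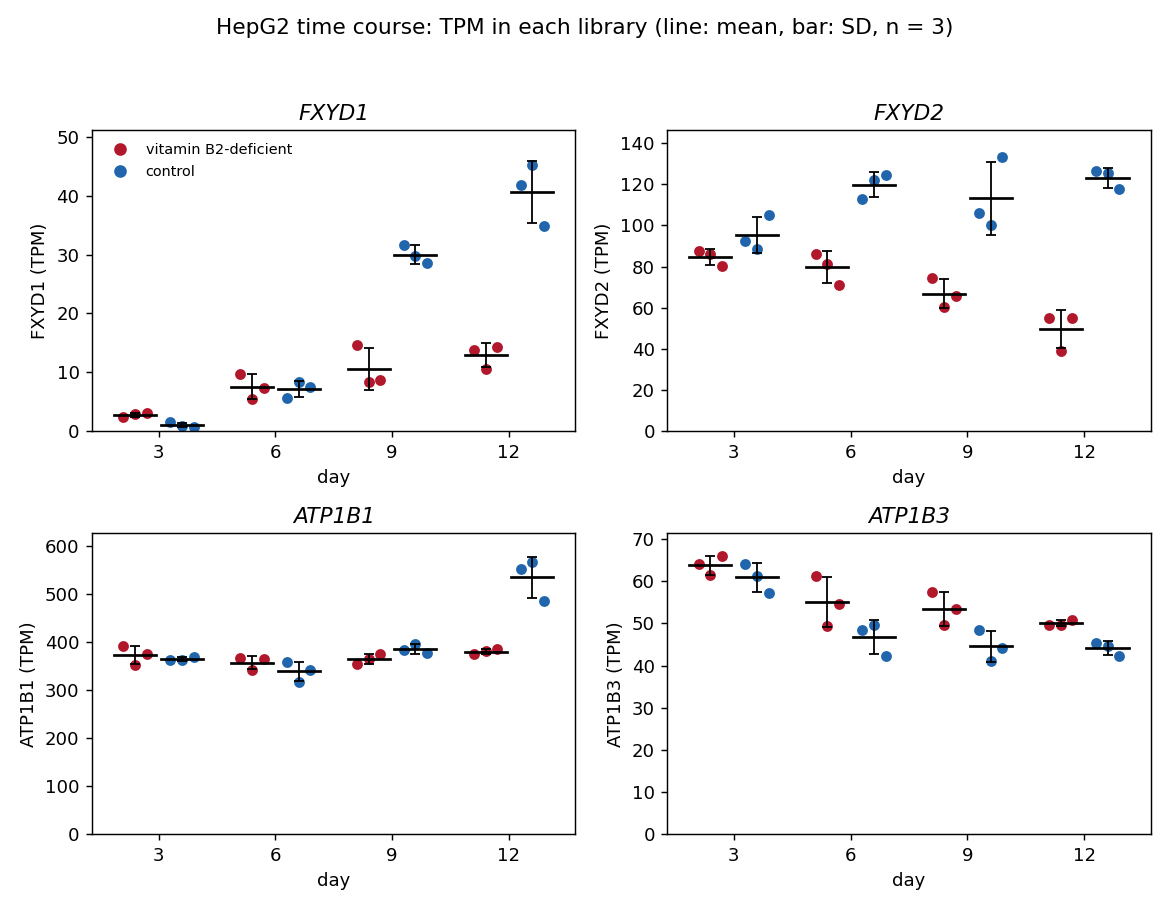
TPM of FXYD1, FXYD2, ATP1B1 and ATP1B3 in HepG2 by day (days 3, 6, 9 and 12), with 1 point per library, a line at the mean and a bar of 1 SD (n = 3) for B2-deficient and control medium. FXYD1 was at 10.5 to 14.3 TPM in B2-deficient libraries on day 12 and at 34.8 to 45.3 TPM in control libraries.

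FXYD3 and FXYD5 did not pass the filter in the time course. FXYD3 had 0.249, 0.181 and 0.194 TPM in B2-deficient libraries on day 12, against 0.903, 1.07 and 0.869 TPM in control libraries, which rests on 14 and 55 reads in all. FXYD5 stayed at or below 0.504 TPM in every library. Of the 4 members tested, 1 was called on day 3 (4.74% of all genes tested were), 2 on day 6 (33% of all genes), 3 on day 9 (49.1%) and 3 on day 12 (52.4%). For the day 12 effect minus the day 3 effect 3 were called (37.7% of all genes), for day 12 against day 3 within B2-deficient cells 3 (49.7%) and within control cells 4 (66.9%). These shares are high throughout from day 6 on, so the number of members called does not set them apart.

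With the IDO/TDO inhibitor 0 of the 5 tested members differed between B2-deficient and control cells past the test, where 1.39% of all genes did. Without it 4 of the 4 members other than FXYD3 did, where 67.9% of all genes did, so the count does not set them apart. By direction 53.6% of all genes were higher and 14.3% lower, while FXYD1, FXYD2 and ATP1B1 were lower and ATP1B3 higher. Values of this experiment may have entered the choice of members, so these directions are a description. With the inhibitor FXYD1 had 169, 177 and 166 TPM in B2-deficient libraries, against 173, 148 and 159 TPM in control libraries. Without it FXYD1 had 18.3, 18.9 and 26.1 TPM in B2-deficient libraries, against 171, 155 and 119 TPM in control libraries. The B2-deficient libraries thus stood among the controls in the first pair and far below them in the second. The log2 difference of B2-deficient and control cells was 0.09 ± 0.15 with the inhibitor (adjusted p = 0.879) and -2.76 ± 0.15 without it (adjusted p = 3.95e-08). The change of the B2 effect with the inhibitor, 2.86 ± 0.21 (adjusted p = 1.17e-06), was larger than the spread between libraries.

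FXYD2 followed the same order of groups. With the inhibitor it had 251, 211 and 277 TPM in B2-deficient libraries and 312, 279 and 353 TPM in controls. Without the inhibitor it had 91.9, 81.0 and 101 TPM in B2-deficient libraries, against 395, 277 and 280 TPM in controls. Every B2-deficient library of the inhibitor pair was below every control one, but the difference of -0.36 ± 0.16 did not pass the test (adjusted p = 0.408), against -1.77 ± 0.16 without the inhibitor (adjusted p = 5.88e-06). The change of the effect was 1.42 ± 0.23 (adjusted p = 0.000576). FXYD3 was low throughout, at 2.11 to 2.64 TPM in B2-deficient libraries and 2.15 to 2.82 TPM in control libraries with the inhibitor, and at 0.218 to 0.477 TPM in B2-deficient libraries and 2.10 to 3.07 TPM in control libraries without it. It passed the filter only through the 3 groups where it is higher, so that their difference from the B2-deficient cells without inhibitor was bound to be large and is not counted as support.

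ATP1B1 had 532, 562 and 471 TPM in B2-deficient libraries with the inhibitor, against 471, 505 and 481 TPM in control libraries. Without the inhibitor it had 273, 279 and 275 TPM in B2-deficient libraries, against 402, 469 and 505 TPM in control libraries, with no overlap. Its difference was 0.10 ± 0.08 with the inhibitor (adjusted p = 0.681) and -0.73 ± 0.08 without it (adjusted p = 5.17e-07), and the change of the effect was 0.83 ± 0.11 (adjusted p = 1.16e-05). ATP1B3 differed from it in sign. It was 55.3 ± 3.67 TPM in B2-deficient cells and 41.9 ± 4.69 TPM in control cells without the inhibitor (log2 difference 0.40 ± 0.08, adjusted p = 0.000662), and the median over all genes in that comparison was itself 0.30. After median scaling the ATP1B3 difference was 0.10 (adjusted p = 0.263) and after quantile normalization 0.13 (adjusted p = 0.169), so its call does not stand apart from the shift of all genes.

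Within B2-deficient cells the inhibitor raised FXYD1 by 2.98 ± 0.15 (adjusted p = 2.09e-08), FXYD2 by 1.42 ± 0.16 (adjusted p = 3.16e-05) and ATP1B1 by 0.91 ± 0.08 (adjusted p = 3.82e-08), all on the log2 scale. Of the 4 members other than FXYD3, 4 were called for the inhibitor in B2-deficient cells (65.7% of all genes were), 0 for the inhibitor in control cells (0.00872%) and 4 for the change of the effect (53.7%). These counts do not set the members apart from all genes, and they pool both directions. For the inhibitor in B2-deficient cells 16.1% of all genes were higher and 49.6% lower. There FXYD1, FXYD2 and ATP1B1 were higher and ATP1B3 lower. The members were selected on measured values, so their directions are a description. In the 2 comparisons with 0 members called by limma, B2 deficiency with the inhibitor and the inhibitor in control cells, 0 of 5 members had an unadjusted p under 0.05, and limma-voom on recovered reads also called 0. Summed hepatocyte markers were 23560 to 24320 TPM in B2-deficient and 26930 to 27660 TPM in control libraries with the inhibitor, and 7263 to 7537 TPM in B2-deficient and 25990 to 27310 TPM in control libraries without it. Stellate markers summed to 16.5 to 19.8 TPM in B2-deficient and 17.4 to 20.6 TPM in control libraries with the inhibitor, and to 119 to 129.5 TPM in B2-deficient and 17.2 to 20.9 TPM in control libraries without it. Biliary markers summed to 186 to 194 TPM in B2-deficient libraries without it and to between 98.1 and 118.5 TPM in the other 3 groups, and macrophage markers to 25.2 to 26.0 TPM and to between 13.2 and 17.0 TPM. The part of these sums in the members' values was not tested.

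**Figure D2:**
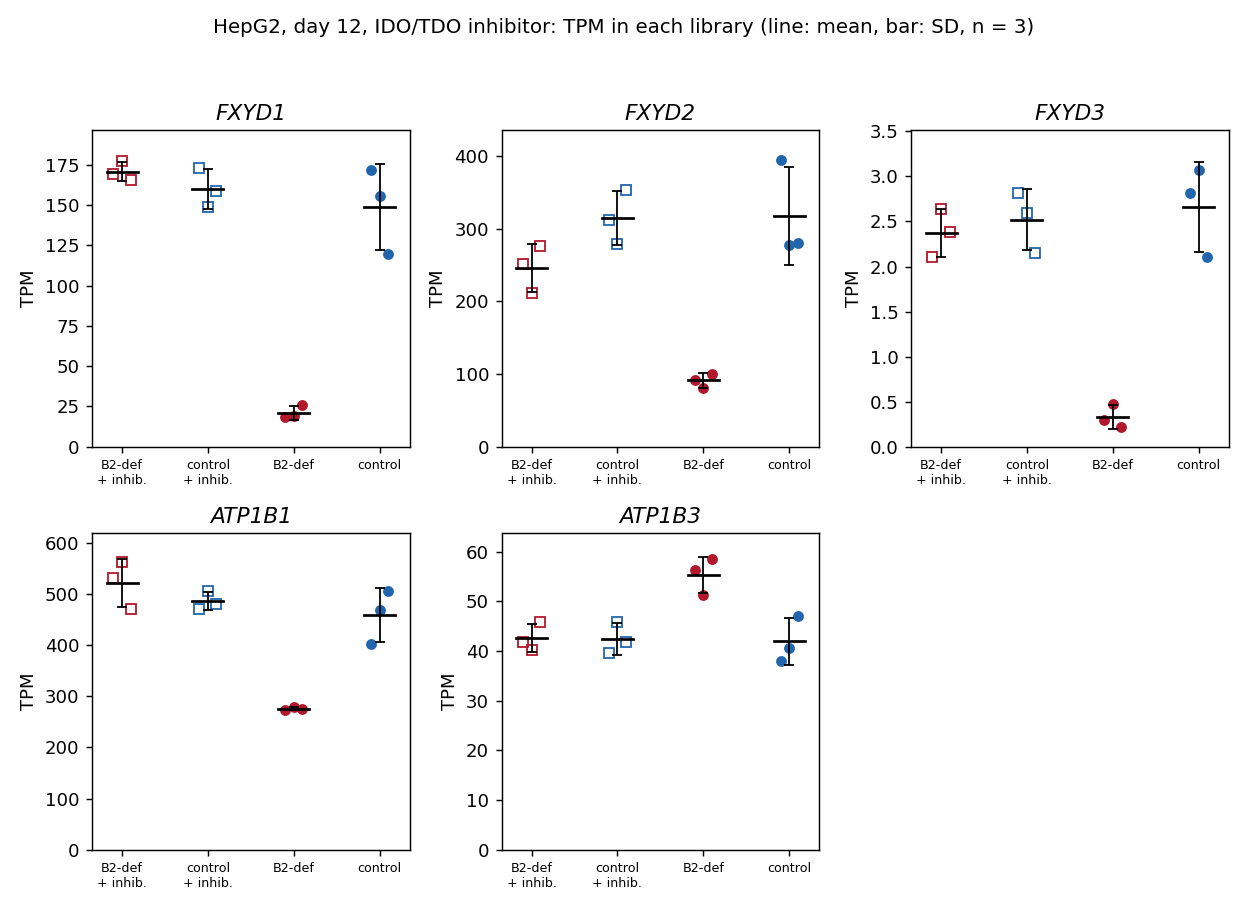
TPM of FXYD1, FXYD2, FXYD3, ATP1B1 and ATP1B3 in HepG2 on day 12 with and without the IDO/TDO inhibitor, with 1 point per library, a line at the mean and a bar of 1 SD (n = 3). FXYD1 stands at 166 to 177 TPM in B2-deficient cells with the inhibitor, at 18.3 to 26.1 TPM in those without it, and at 119 to 173 TPM in the control groups.

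ATP1B1 reversed its response to B2 deficiency in cells with the AhR guide, while FXYD1 and FXYD2 still fell. Under the AhR guide it had 350, 333 and 366 TPM in B2-deficient libraries, against 260, 273 and 285 TPM in control-medium libraries. With the control guide it had 267, 239 and 258 TPM in B2-deficient libraries, against 572, 541 and 474 TPM in control-medium libraries. The groups did not overlap in either pair, and the order was opposite. The difference was 0.36 ± 0.07 with the AhR guide (adjusted p = 0.000602) and -1.05 ± 0.07 with the control guide (adjusted p = 1.77e-08). The change of the effect was 1.41 ± 0.10 (adjusted p = 2.15e-06), and the AhR guide call kept its sign after quantile normalization (0.28) and median scaling (0.20). ATP1B1 was higher with the AhR guide in B2-deficient medium (0.46 ± 0.07, adjusted p = 0.000725) and lower with it in control medium (-0.95 ± 0.07, adjusted p = 3.76e-07). NME7, whose end overlaps that of ATP1B1, had log2 differences of 0.44 with the AhR guide and -0.92 with the control guide. It had 14.1% to 16.6% as many reads as ATP1B1 in these libraries. If counting ignored strand, reads in the overlap cannot be told apart, and how far the 2 genes share reads was not tested.

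FXYD1 had 35.4, 27.1 and 28.3 TPM in B2-deficient libraries with the AhR guide, against 93.0, 97.8 and 83.2 TPM in control-medium libraries. With the control guide it had 33.4, 41.6 and 35.6 TPM in B2-deficient libraries, against 222, 229 and 164 TPM in control-medium libraries. In control medium the AhR guide thus went with a lower level than the control guide (-1.15 ± 0.14, adjusted p = 5.85e-05), and in B2-deficient medium the 2 guides overlapped (-0.28 ± 0.14, adjusted p = 0.23). The difference of B2-deficient and control cells was -1.57 ± 0.14 with the AhR guide (adjusted p = 2.01e-06) and -2.44 ± 0.14 with the control guide (adjusted p = 2.93e-08), and the change of the effect was 0.87 ± 0.19 (adjusted p = 0.0119).

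FXYD2 had 184, 166 and 173 TPM in B2-deficient libraries with the AhR guide, against 286, 264 and 250 TPM in control-medium libraries. With the control guide it had 102, 86.5 and 114 TPM in B2-deficient libraries, against 200, 168 and 191 TPM in control-medium libraries. Unlike FXYD1, it was higher with the AhR guide in both media, by 0.79 ± 0.09 in B2-deficient medium (adjusted p = 0.000151) and 0.51 ± 0.09 in control medium (adjusted p = 0.000716). Its difference of B2-deficient and control cells was -0.61 ± 0.09 with the AhR guide (adjusted p = 0.000102) and -0.89 ± 0.09 with the control guide (adjusted p = 2.23e-06). The change of 0.28 ± 0.13 did not pass the test (adjusted p = 0.175).

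FXYD3 passed the filter here only through its 3 control-guide libraries in control medium, so that its difference from them was bound to be large and is not counted as support. It had 0.0630 to 0.179 TPM in B2-deficient and 0.494 to 0.825 TPM in control-medium libraries with the AhR guide, and 0.360 to 0.396 TPM in B2-deficient and 1.84 to 2.74 TPM in control-medium libraries with the control guide. ATP1B3 stayed between 38.5 and 55.8 TPM in all 12 libraries. Its calls were small, 0.21 ± 0.08 for B2 deficiency with the control guide (adjusted p = 0.0337) and 0.25 ± 0.08 for the AhR guide in control medium (adjusted p = 0.0245), and neither was called after quantile normalization (0.02, adjusted p = 0.816, and 0.14, adjusted p = 0.198) or median scaling (0.02, adjusted p = 0.878, and 0.19, adjusted p = 0.0758), with no filter (0.21, adjusted p = 0.0681, and 0.25, adjusted p = 0.0549) or with the 2 groups alone (0.21, adjusted p = 0.0845, and 0.25, adjusted p = 0.0536). Leaving out replicate 1 or 2 of the B2-deficient control-guide group or replicate 2 of the control-medium control-guide group ended the first of these ATP1B3 calls (0.15, adjusted p = 0.148, 0.21, adjusted p = 0.0717, and 0.13, adjusted p = 0.17). Leaving out replicate 3 of the control-medium AhR guide group or replicate 2 of the control-medium control-guide group ended the second (0.22, adjusted p = 0.0873, and 0.17, adjusted p = 0.116).

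Of the 4 members other than FXYD3, 3 were called for B2 deficiency with the AhR guide (53.2% of all genes), 4 with the control guide (60.7%), 2 for the guide in B2-deficient medium (12%), 4 for the guide in control medium (36.7%) and 2 for the change of the effect (14.4%). Summed hepatocyte markers were 7318 to 7666 TPM in B2-deficient and 18660 to 19780 TPM in control-medium libraries with the AhR guide, and 6094 to 6371 TPM in B2-deficient and 23790 to 24310 TPM in control-medium libraries with the control guide. Stellate markers summed to 81.8 to 93.8 TPM in B2-deficient and 33.4 to 38.2 TPM in control-medium libraries with the AhR guide, and to 101.5 to 114.7 TPM in B2-deficient and 17.6 to 25.3 TPM in control-medium libraries with the control guide. The part of these sums in the members' values was not tested.

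**Figure D3:**
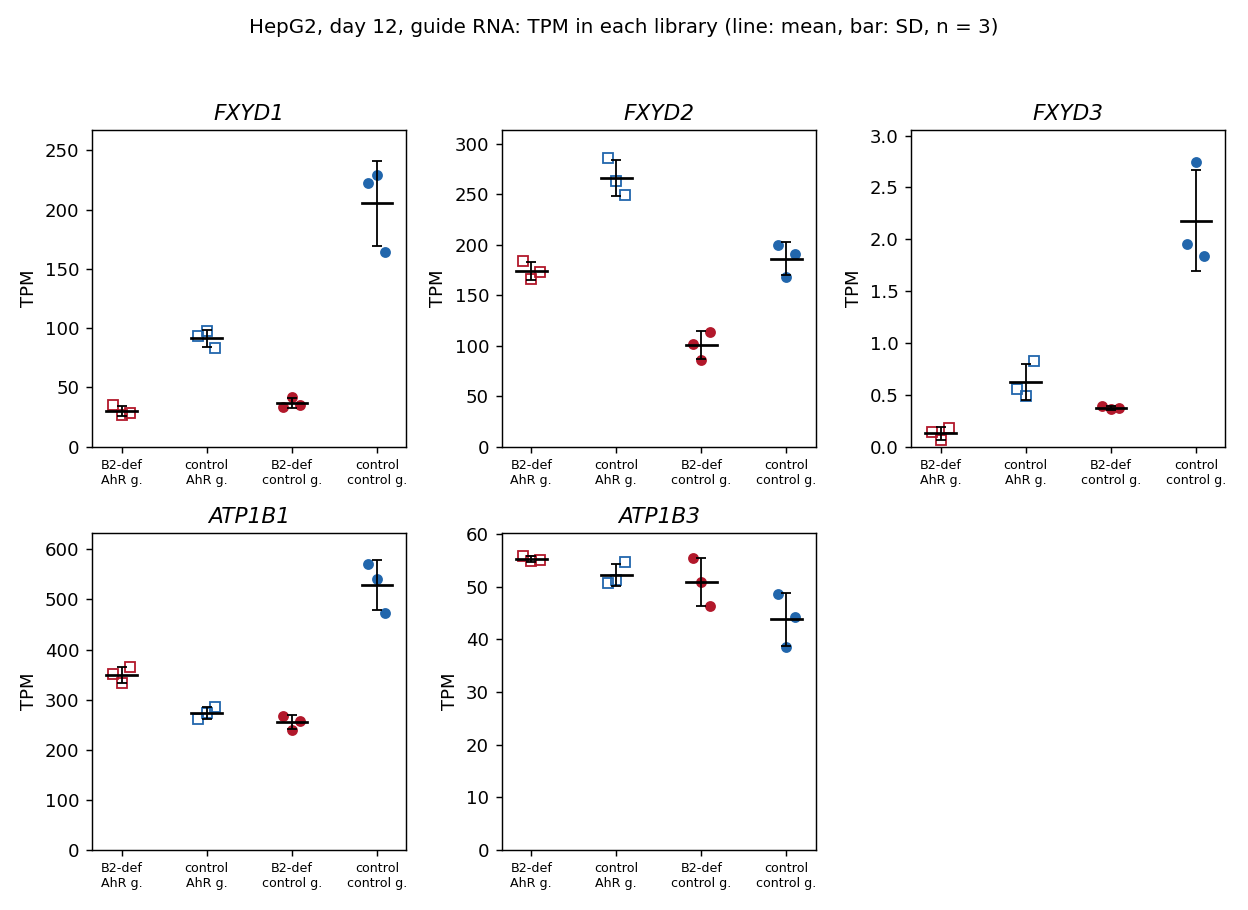
TPM of FXYD1, FXYD2, FXYD3, ATP1B1 and ATP1B3 in HepG2 on day 12 with the control or AhR guide RNA in B2-deficient and control medium, with 1 point per library, a line at the mean and a bar of 1 SD (n = 3). ATP1B1 is higher in B2-deficient cells with the AhR guide (333 to 366 TPM against 260 to 285 TPM) and lower with the control guide (239 to 267 TPM against 474 to 572 TPM).

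Kyn alone, in cells not described as B2-deficient, went with lower values of FXYD1, FXYD2 and ATP1B1, and these values are part of what selected the genes. FXYD2 had 8.64, 9.90 and 8.89 TPM with Kyn, against 25.9, 32.3 and 34.5 TPM with DMSO, a log2 difference of -1.65 ± 0.11. ATP1B1 had 218 TPM in each of the 3 Kyn libraries, against 312, 317 and 334 TPM with DMSO, a difference of -0.56 ± 0.05. FXYD1 had 29.9, 44.6 and 32.5 TPM with Kyn, against 59.8, 81.4 and 82.8 TPM with DMSO, a difference of -1.05 ± 0.17. For FXYD1, FXYD2 and ATP1B1 each Kyn library stood below each DMSO library, while the groups overlapped for FXYD3, FXYD5 and ATP1B3. The share of all genes without overlap is not given, so the separation is a description.

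Together with the AhR inhibitor, Kyn left the groups overlapping. FXYD2 had 25.0, 29.5 and 29.9 TPM with Kyn and inhibitor, against 28.5, 34.4 and 31.1 TPM with DMSO and inhibitor (-0.15 ± 0.11). FXYD1 had 85.0, 97.5 and 76.8 TPM with Kyn and inhibitor, against 66.1, 82.7 and 76.2 TPM with DMSO and inhibitor (0.20 ± 0.17). ATP1B1 had 293, 330 and 344 TPM with Kyn and inhibitor, against 315, 316 and 324 TPM with DMSO and inhibitor (0.02 ± 0.05). The inhibitor without Kyn moved these 3 genes by at most 0.02 in either direction on the log2 scale. FXYD3 and ATP1B3 had overlapping groups in the comparison of Kyn with DMSO without inhibitor, at 0.871 to 1.18 TPM and 0.879 to 2.15 TPM for FXYD3. FXYD5 was listed at 0 in all 3 Kyn libraries without inhibitor and had at most 0.323 TPM in the others. Of all genes, 11.7% were past the threshold for Kyn without the inhibitor and 10.8% for Kyn with it. Members are not counted here because these values helped to select them. CYP1A1 had 1.78 to 2.46 TPM with Kyn and 1.51 to 1.86 TPM with DMSO. Hepatocyte markers summed to 12780 to 13710 TPM with Kyn and 12220 to 12990 TPM with DMSO, and stellate markers to 14.29 to 15.25 TPM with Kyn and 15.89 to 18.54 TPM with DMSO.

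In the AhR inhibitor experiment the column headers give the inhibitor libraries another date and directory than those without it. The effect of the inhibitor and that of the date cannot be told apart, and only B2-deficient and control cells with the same date are set against each other. In the set with 10 uM inhibitor FXYD1 had 2.84, 2.91 and 2.75 TPM in B2-deficient libraries, against 68.4, 64.6 and 38.0 TPM in control libraries, a log2 difference of -3.88 ± 0.21. In the set without inhibitor it had 9.28, 8.80 and 14.6 TPM in B2-deficient libraries, against 131, 134 and 144 TPM in control libraries, a difference of -3.56 ± 0.21. B2-deficient libraries were thus far below controls in both sets. Replicate 3 of the control group with inhibitor stood apart from the other libraries of its group, and without it the FXYD1 difference with inhibitor was -4.14. FXYD2 had 78.7, 62.2 and 75.6 TPM in B2-deficient and 180, 196 and 145 TPM in control libraries with inhibitor (-1.25 ± 0.14). Without it FXYD2 had 98.0, 74.9 and 77.0 TPM in B2-deficient and 231, 183 and 218 TPM in control libraries (-1.33 ± 0.14).

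ATP1B1 had 321, 304 and 324 TPM in B2-deficient libraries with inhibitor, against 478, 498 and 406 TPM in control libraries (-0.54 ± 0.07). Without it ATP1B1 had 343, 322 and 328 TPM in B2-deficient libraries, against 378, 388 and 417 TPM in control libraries (-0.25 ± 0.07). The groups did not overlap in either set. ATP1B3 was 45.1 ± 1.13 TPM in B2-deficient cells and 44.1 ± 8.10 TPM in control cells with inhibitor, and 63.7 ± 4.82 TPM in B2-deficient cells and 39.8 ± 3.30 TPM in control cells without it (SD, n = 3 each). FXYD3 passed the filter only through its control groups and was listed at 0 in all 3 B2-deficient libraries with inhibitor. FXYD5 reached 0.734 to 1.28 TPM in B2-deficient libraries and 0 to 0.177 TPM in control libraries without inhibitor, below the filter and on 30 and 2 reads. Of all genes, 57.5% were past the threshold with the inhibitor and 61.5% without it. Members are not counted here because these values helped to select them. CYP1A1 had 1.33 to 1.82 TPM in B2-deficient and 2.54 to 4.93 TPM in control libraries with inhibitor, and 14.3 to 15.2 TPM in B2-deficient and 2.11 to 3.03 TPM in control libraries without it. Hepatocyte markers summed to 5731 to 6255 TPM in B2-deficient and 23360 to 27930 TPM in control libraries with inhibitor, and to 5292 to 5493 TPM in B2-deficient and 24100 to 26360 TPM in control libraries without it. Stellate markers summed to 42.1 to 49.7 TPM in B2-deficient and 24.0 to 34.0 TPM in control libraries with inhibitor, and to 81.7 to 90.9 TPM in B2-deficient and 22.2 to 25.3 TPM in control libraries without it.

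**Figure D4:**
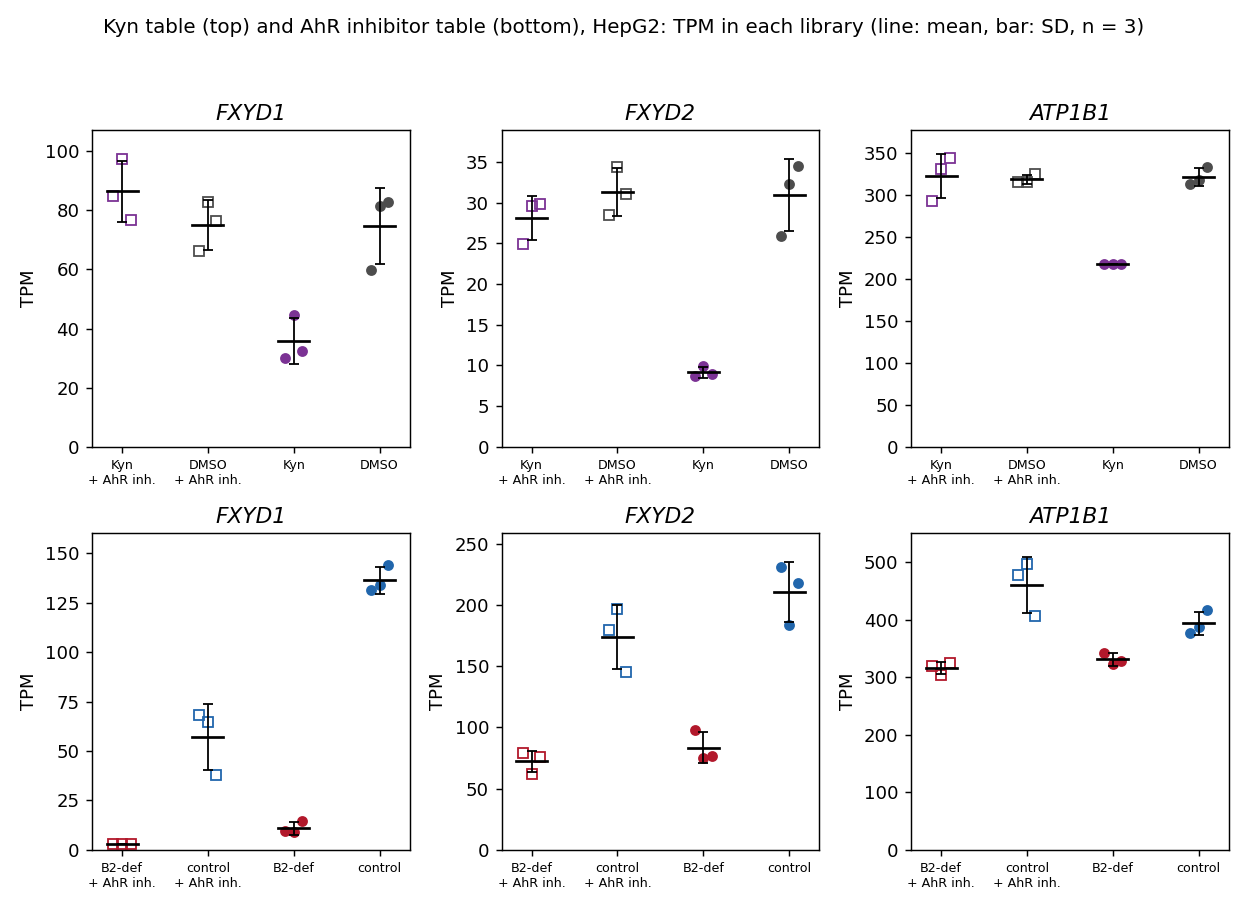
TPM of FXYD1, FXYD2 and ATP1B1 in HepG2 on day 12, with the Kyn experiment in the upper row and the AhR inhibitor experiment in the lower row, 1 point per library, a line at the mean and a bar of 1 SD (n = 3). Kyn libraries of FXYD2 stand at 25.0 to 29.9 TPM with inhibitor and at 8.64 to 9.90 TPM without it, while B2-deficient FXYD1 libraries stay at or below 14.6 TPM in both lower groups.

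In Caco-2 the member that moved most was FXYD3 and not FXYD1. FXYD3 had 27.5, 36.1 and 27.7 TPM in B2-deficient libraries, against 60.4, 57.5 and 55.6 TPM in control libraries, on 1063 and 1941 reads in all. The groups did not overlap, and the log2 difference was -0.92 ± 0.10 (adjusted p = 8.09e-05). ATP1B1 had 359, 352 and 368 TPM in B2-deficient libraries, against 444, 438 and 440 TPM in control libraries (-0.29 ± 0.04, adjusted p = 0.000593). FXYD5, at or below 1.28 TPM in every HepG2 library, had 18.7, 19.3 and 16.2 TPM in B2-deficient libraries, against 12.1, 15.2 and 14.1 TPM in control libraries (0.37 ± 0.10, adjusted p = 0.0193). The FXYD5 call was lost without replicate 1 or 2 of the B2-deficient group (0.34, adjusted p = 0.0621, and 0.32, adjusted p = 0.0719) or replicate 1 of the control group (0.28, adjusted p = 0.0584), and with no filter (0.37, adjusted p = 0.0529) or limma-voom on recovered reads (0.34, adjusted p = 0.0661).

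FXYD1 was low in Caco-2, at 0.930 to 2.12 TPM in B2-deficient and 2.18 to 2.81 TPM in control libraries, and its difference of -0.45 ± 0.18 did not pass the test (adjusted p = 0.0768). It did without replicate 3 of the B2-deficient group (-0.62, adjusted p = 0.0321). FXYD2 had 14.0, 5.85 and 8.03 TPM in B2-deficient libraries, against 12.6, 11.3 and 10.4 TPM in control libraries (-0.35 ± 0.29, adjusted p = 0.406), and without the first of these, replicate 1, the difference was -0.66 (adjusted p = 0.00812). ATP1B3 was 59.4 ± 3.01 TPM in B2-deficient cells and 57.8 ± 4.54 TPM in control cells (adjusted p = 0.702). Of the 6 members 3 were called, where 33.7% of all genes were. Of the other pump and FXYD genes above the filter, ATP1B2 (0.18 ± 0.18, adjusted p = 0.496) and FXYD6 (0.23 ± 0.13, adjusted p = 0.201) did not pass the test. LGI4, a neighbour on the strand opposite to FXYD3 whose end lies 189 bases past that of FXYD3, had -1.13 ± 0.13 (adjusted p = 0.000124). Summed enterocyte markers, 4 of 7 above the filter, were 84.9 to 90.2 TPM in B2-deficient and 143 to 152 TPM in control libraries, and their part in the FXYD3 result was not tested.

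In mouse cells and tissue Fxyd1 did not show the fall seen in HepG2. In hepatocytes with Ad-Cre it had 60.4, 62.5 and 62.7 TPM in B2-deficient libraries, against 48.1, 35.8 and 52.9 TPM in control libraries (0.45 ± 0.17, adjusted p = 0.373). With Ad-Cont it had 73.9, 98.5 and 92.4 TPM in B2-deficient libraries, against 69.4, 44.4 and 58.4 TPM in control libraries (0.63 ± 0.17, adjusted p = 0.0391). That call was lost without replicate 2 or 3 of the B2-deficient Ad-Cont group (0.54, adjusted p = 0.126, and 0.59, adjusted p = 0.108) or replicate 2 or 3 of the control Ad-Cont group (0.46, adjusted p = 0.106, and 0.65, adjusted p = 0.0878), and with no filter (0.63, adjusted p = 0.0512) or the 2 groups alone (0.63, adjusted p = 0.0734). Every B2-deficient library was above every control one in both pairs, and the change of the effect with Ad-Cre, -0.18 ± 0.24, did not pass the test (adjusted p = 0.817). In whole liver Fxyd1 had 167, 170, 194 and 227 TPM in B2-deficient libraries, against 182, 197, 210 and 218 TPM in control libraries, and the groups overlapped (-0.10 ± 0.13, adjusted p = 0.655).

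With Ad-Cre Fxyd5 had 6.69, 6.79 and 5.49 TPM in B2-deficient libraries, against 12.8, 7.33 and 11.6 TPM in controls (-0.63 ± 0.16, adjusted p = 0.154), and -0.85 (adjusted p = 0.0196) without replicate 2 of the control Ad-Cre group. With Ad-Cont it had 5.83, 4.60 and 6.13 TPM in B2-deficient libraries, against 8.56, 7.74 and 8.34 TPM in controls (-0.51 ± 0.16, adjusted p = 0.0686), and with the 2 groups alone the adjusted p was 0.0469. Fxyd5 thus lay lower in B2-deficient libraries of both pairs without passing the test in the fit of all groups. Summed stellate markers were 12.8 to 24.5 TPM in B2-deficient and 34.7 to 41.0 TPM in control hepatocytes with Ad-Cont, and biliary markers 67.1 to 113 TPM in B2-deficient and 117 to 127 TPM in control hepatocytes. Their part in the Fxyd5 values was not tested. Atp1b1 had 50.8, 44.2, 35.5 and 46.9 TPM in B2-deficient livers, against 22.7, 41.9, 24.6 and 28.2 TPM in control livers (0.61 ± 0.18, adjusted p = 0.0804). One control liver overlapped the B2-deficient range, and without it the difference was 0.79 (adjusted p = 0.0174). Of 8 fits with a library left out only this 1 passed the test, and of 6 alternative settings 0 did. Nme7, which overlaps Atp1b1 on the opposite strand, was higher by 0.72 in B2-deficient livers. Fxyd2 and Fxyd3 were at or below 1.68 TPM in all mouse libraries.

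Of the 5 members tested in hepatocytes, 0 were called for B2 deficiency with Ad-Cre (0.329% of all genes), 1 with Ad-Cont (9.78%), 0 for Ad-Cre in B2-deficient cells (1.03%), 0 for Ad-Cre in control cells (0.0247%) and 0 for the change of the effect (0.247%). In liver 0 of 4 were called (3.22%). Beside these counts of 0 by limma, an unadjusted p under 0.05 was reached by 2 members for B2 deficiency with Ad-Cre, by 1 each for Ad-Cre in B2-deficient cells, the change of the effect and liver, and by 0 for Ad-Cre in control cells, and limma-voom called 0 in each.

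**Figure D5:**
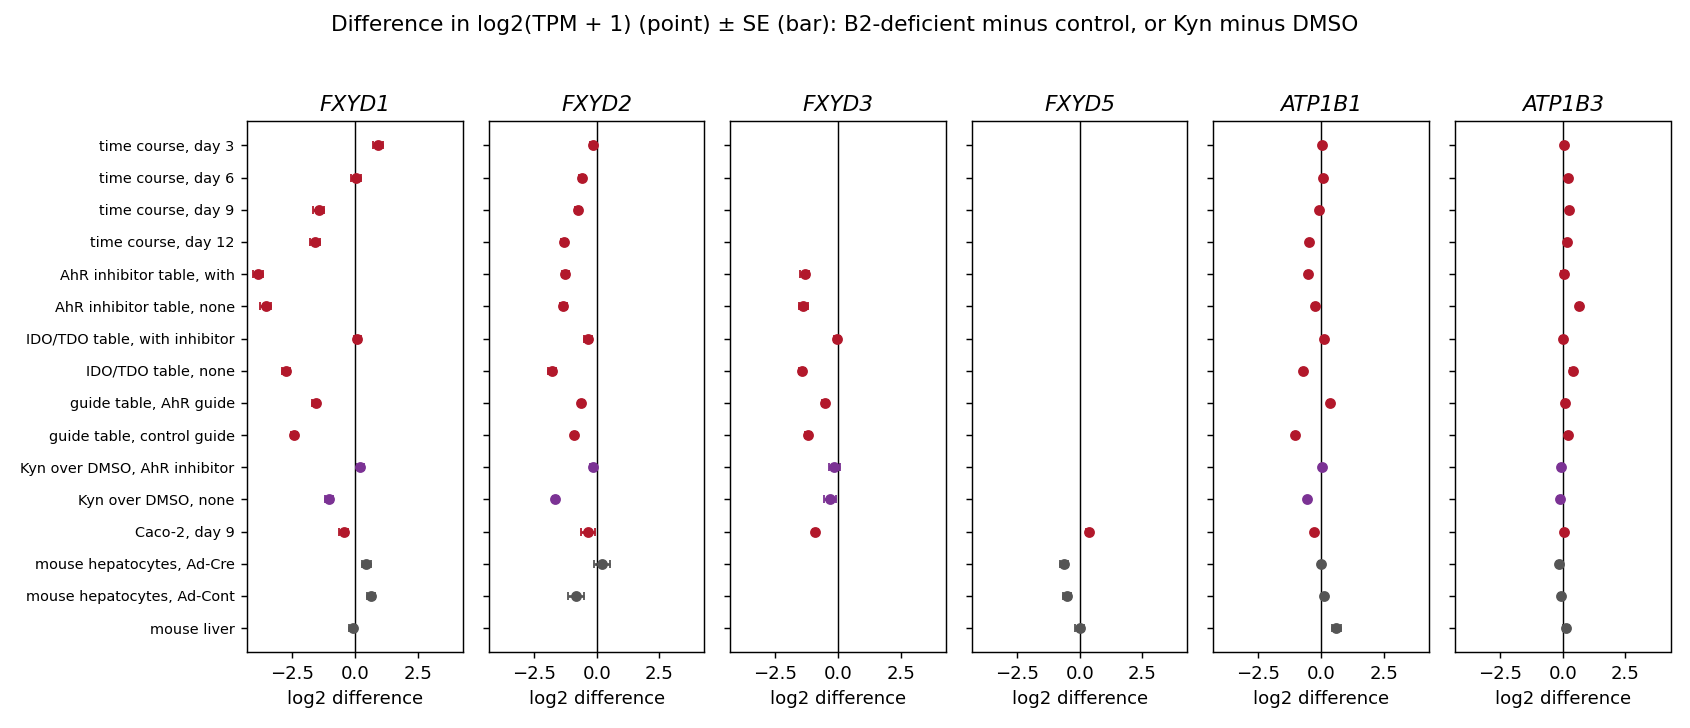
Log2 differences with their SE for the 6 members in 16 comparisons of B2-deficient with control samples and of Kyn with DMSO; members below the filter are left out. FXYD1 is at -1.59 or lower in the B2 comparisons of HepG2 on day 12, except with the IDO/TDO inhibitor (0.09) and with the AhR guide (-1.57), and at or above -0.10 in the mouse samples.

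Across the 26 human groups, each gene centred on the mean of its table, FXYD1 ran with FXYD2 (Pearson r = 0.639) and ATP1B1 (r = 0.678), and opposite to ATP1B3 (r = -0.732). Groups of 1 table share controls and a scale, so these correlations are a description. Among 6530 genes that passed the filter in all 6 human tables with a mean of at least 5 TPM, the patterns most like that of FXYD1 were those of IGF2 (r = 0.965), its read-through INS-IGF2 (r = 0.965) and CP, the plasma copper carrier ceruloplasmin (r = 0.960). For FXYD2 they were FXYD6-FXYD2, then PEBP1 (r = 0.892) and LOC101929633 (r = 0.876). For ATP1B1 they were NME7 (r = 0.913), APP, the amyloid precursor (r = 0.877), and DRAM1 (r = 0.860), and for ATP1B3 LLPH (r = 0.898), KPNA3 (r = 0.882) and MTCH1 (r = 0.875).

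The neighbours of FXYD1 did not all share its direction. Without the IDO/TDO inhibitor HAMP, which encodes the iron hormone hepcidin and starts 143557 bases from the start of FXYD1, was higher in B2-deficient cells by 4.24 ± 0.22 (adjusted p = 1.48e-08). LGI4 was lower (-2.02 ± 0.13, adjusted p = 1.08e-09). With the AhR guide in control medium HAMP was higher by 1.82 ± 0.17 (adjusted p = 1.76e-05) and LGI4 lower (-1.26 ± 0.17, adjusted p = 5.94e-05), beside -1.15 ± 0.14 for FXYD1.

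Other genes of sodium and potassium handling moved in both directions. Their lists were chosen with earlier results of these data known, so list counts and medians, here and below, are a description. In B2-deficient cells without the IDO/TDO inhibitor 53.6% of all genes were higher and 14.3% lower (median 0.30). Of 15 tested genes listed for sodium-coupled transport, a list not of transporters alone, 8 were higher and 4 lower (median 0.22). Of 8 pump and transporter regulators 2 were higher and 2 lower (median 0.04), and of 3 potassium exit genes 1 was higher and 0 lower. SLC5A3, the sodium-coupled myo-inositol transporter, was lower in B2-deficient cells, 3.19 TPM against 32.0 TPM in control cells (-2.97 ± 0.10, adjusted p = 1.02e-12), and was raised in B2-deficient cells by the inhibitor by 3.46 ± 0.10 (adjusted p = 1.59e-13). SLC13A5, the sodium-citrate carrier, was lower (-1.04 ± 0.06, adjusted p = 5.01e-10). The amino acid carriers SLC1A5 (1.05 ± 0.06, adjusted p = 3.28e-10) and SLC38A1 (1.10 ± 0.11, adjusted p = 4e-07) were higher. Among regulators the kinase genes STK39 (0.52 ± 0.08, adjusted p = 2.58e-05) and WNK4 (-1.29 ± 0.12, adjusted p = 8.41e-08) moved in opposite directions.

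With the AhR guide in control medium 0 of the 15 genes of the sodium-coupled transport list were higher and 8 lower. Their median was -0.24, against 0.06 over all genes, of which 23.3% were higher and 13.4% lower. Of 8 regulators 1 was higher and 5 lower (median -0.33). SLC5A3 was lower there (-2.28 ± 0.16, adjusted p = 5.23e-07), as was the amino acid carrier SLC38A2 (-1.13 ± 0.07, adjusted p = 1.01e-07). The effect of B2 deficiency on SLC5A3 was -0.55 ± 0.16 with the AhR guide (adjusted p = 0.011) and -2.90 ± 0.16 with the control guide (adjusted p = 7.23e-09), and the change of 2.35 ± 0.23 passed the test (adjusted p = 3.36e-05). In Caco-2 SLC5A3 had the opposite sign, 0.68 ± 0.11 (adjusted p = 0.0014). There 14.3% of all genes were higher and 19.5% lower. Of 14 tested genes of the sodium-coupled transport list 4 were higher and 6 lower (median 0.02, against -0.07 over all genes). Among them were the phosphate carrier SLC20A1 at 0.87 ± 0.09 (adjusted p = 6.94e-05) and the sodium-potassium-chloride carrier SLC12A2 at -1.11 ± 0.10 (adjusted p = 2.76e-05). In mouse hepatocytes with Ad-Cont the bicarbonate carrier Slc4a4 was higher by 0.47 ± 0.07 (adjusted p = 0.000817), and in liver by 1.26 ± 0.16 (adjusted p = 0.00299), while the kinase gene Sgk1 was lower in hepatocytes (-0.42 ± 0.11, adjusted p = 0.0295) and higher by 1.08 ± 0.17 in liver (adjusted p = 0.00747).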

How the data were processed

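Total RNA of 100 labelled samples was sequenced as QuantSeq 3′ mRNA libraries (oligo(dT) priming), per the labels' protocols, and 98 columns of 8 tables were used: 8 liver columns carry no animal number and stand for 4 libraries per regime of the 10 liver samples labelled. The deposited values are TPM, made by the authors with HOMER per the file headers. Per the submitters' processing notes the tools were STAR, Bowtie2 and HOMER, with no role stated, and the genomes hg38 (human) and mm10 (mouse). The tables used here hold no raw counts, so a test on log-scaled TPM took the place of the count test foreseen for counts.

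Each table was fitted alone with limma 3.58.1 (R 4.3.3) on log2(TPM + 1), with 1 mean per group, trended and robust variance, two-sided tests, and Benjamini-Hochberg adjustment over every gene of the table with at least 1 TPM in at least 3 libraries (5 in liver), which gave 10574 to 12488 genes. Every log2 difference is one of log2(TPM + 1), so changes of genes at low TPM come out too small, and adjusted p-values are limma's. Whole reads could be recovered from the TPM steps in 100% of the values checked (tolerance 0.1) and served for depth and for an alternative fit with limma-voom; intervals on them would cover counting error only. No label says that replicates came from separate cultures, so p-values measure the spread between these libraries, which may be technical.

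Members and gene lists were chosen with earlier results of these data known. Named were all 6 members, AHR and CYP1A1, other pump and FXYD genes above the filter, of each other list at most the 2 highest and 2 lowest past the threshold if they averaged 5 TPM or more, and the 3 genes most alike to each member; overlapping and neighbouring genes were added for their position. Some of these genes are not reported here. Alternatives were a pseudocount of 0.1, no filter, quantile normalization, median scaling, limma-voom, the 2 groups of a comparison alone, a replicate block, and each library left out. The fit was tested on simulated data before use.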

Additional observations from a re-analysis of the deposited data

Results flagged for a closer look

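The effect of B2 deficiency on day 12 of the HepG2 time course differed from that on day 3 by -2.48 for FXYD1, -1.14 for FXYD2 and -0.52 for ATP1B1 on the log2 scale, each by a test of the difference itself. The IDO/TDO inhibitor changed the effect of B2 deficiency by 2.86 for FXYD1, 1.42 for FXYD2, 0.83 for ATP1B1 and -0.39 for ATP1B3, again by a test of the change; that of ATP1B3 was -0.14 (adjusted p = 0.309) after quantile normalization. The AhR guide changed it by 1.41 for ATP1B1 and 0.87 for FXYD1. For FXYD3 the fitted changes were 1.40 with the IDO/TDO inhibitor and 0.68 with the AhR guide, but FXYD3 passed the filter in both experiments only through groups where it is high, so these values are a description and support nothing. In the Kyn experiment every Kyn library of FXYD1 lay below the DMSO mean without the AhR inhibitor and above it with the inhibitor, a change of 1.25 that was not tested because these values selected the gene. In control livers Fxyd2 was listed at 0 in 3 libraries and at 0.356 TPM in the other, so that its gap to the rest was 1.0 of the range, above Dixon's critical value for 4 libraries. With 3 equal values this ratio is 1.0 whatever the other value is, so it carries no information here.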

How the results depend on the processing

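Of the tested members' values, 735 of 768 under an alternative setting and 770 of 800 with a library left out kept their side of the threshold. These totals include uncalled values that changed sign, such as ATP1B3 for B2 deficiency with the AhR guide (0.08, and -0.07 after median scaling). Of the called values 0 reversed. The count of called members differed by more than 1.5 times on day 3 (0 with limma-voom, against 1), on day 6 (1 with no filter, with median scaling and with the 2 groups alone, against 2) and with Ad-Cont (0 with no filter, against 1). With a library left out it ranged from 0 to 1 on day 3, from 1 to 2 on day 6, from 0 to 1 with Ad-Cont, from 0 to 1 with Ad-Cre and from 0 to 1 in liver. The causes were not tested. FXYD3's change of effect with the AhR guide was 0.57 (adjusted p = 0.49) with a pseudocount of 0.1 and 0.23 (adjusted p = 0.876) with limma-voom. Deviations from the group means correlated over 0.1 in 2 of 177 same-numbered pairs of libraries. Libraries that correlated best with their own replicate number were 11 of 24 in the time course and 7 of 12 each in the AhR inhibitor and Kyn experiments. They were 4 of 12 each in the IDO/TDO and mouse hepatocyte experiments, 2 of 12 with the guides and 0 of 6 in Caco-2. Whether same-numbered libraries share a culture or a batch was not tested. With the replicate block ATP1B3 on day 12 became a call (0.18, adjusted p = 0.0309), making 4 called members in place of 3, and it changed no other count of called members. No paired analysis was possible for liver because its columns carry no number. Counts over all genes moved by more than 1.5 times, from 592 to 351 on day 3 without a library, from 1429 to 849 for the AhR guide in B2-deficient medium without a library, from 1712 to 2695 for the change of effect with the AhR guide (limma-voom), from 159 to between 53 and 339 for B2 deficiency with the IDO/TDO inhibitor, from 1 to between 0 and 2 for that inhibitor in control cells, from 1189 to 719 with Ad-Cont, from 40 to between 16 and 127 with Ad-Cre, from 125 to between 49 and 249 for Ad-Cre in B2-deficient cells, from 3 to between 0 and 7 for it in control cells, from 30 to between 11 and 179 for the change of effect with it and from 341 to between 62 and 534 in liver. Members at a few TPM (FXYD3, and FXYD1 in Caco-2) rest on few reads per library, which limits their precision.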
